A study of Mus musculus with 2 samples.

Results

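The elastic fibre assembly genes were 10 genes of elastin, fibrillins, fibulins, lysyl oxidases and proteins of the microfibril (Eln, Fbn1, Fbn2, Fbln5, Efemp2, Lox, Loxl1, Ltbp4, Mfap4 and Emilin1). They do not hold every gene of these families. Other fibulins, lysyl oxidases and microfibril genes are described below in separate lists. Members were the probe sets that the platform annotation assigned to exactly one of these genes. The rule found 15 probe sets of 8 genes among the 45101 probe sets of the array, and 12 of the 15 were above background on at least one array. No probe set was assigned to Fbn1 or to Efemp2 (fibulin-4), so that both are not analysed here. The samples were whole lungs, taken at the embryonic stage E15.5, of TAZ-deficient mice and of their wild type littermates. In each group 4 total RNA samples were mixed into 1 pool, which was read on 1 Affymetrix one-colour mouse expression array. The sources used here do not state the allele behind the TAZ deficiency or the strain, and the labels name no agent for either group. TAZ is the protein of the gene Wwtr1, a coactivator of transcription that works with TEAD factors and that the Hippo kinases hold back.

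Elastic fibres give lung and artery walls their recoil. Soluble tropoelastin, the product of Eln, is secreted, gathers into droplets and is laid onto a scaffold of fibrillin microfibrils, and fibulins bring it together with the lysyl oxidases that cross-link it into an insoluble polymer. Smooth muscle cells, fibroblasts and myofibroblasts are the main makers. Before birth the fibres lie mostly around airways and vessels, and those of the alveolar septa are laid down later. Mice without TAZ are known for cystic kidneys and enlarged airspaces, and loss of several elastic fibre genes in mice is also known to enlarge airspaces.

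Of the 8 genes measured, 7 had lower signal in the TAZ-deficient pool and 1, Fbn2, had higher signal. The differences were small. The genes encoding fibulin-5 (Fbln5), elastin (Eln), lysyl oxidase (Lox) and the latent TGF-beta binding protein LTBP4 (Ltbp4) were 1.47-fold, 1.27-fold, 1.25-fold and 1.25-fold lower. Loxl1, Mfap4 and Emilin1 were between 1.07-fold and 1.11-fold lower, and the fetal fibrillin gene Fbn2 was 1.14-fold higher. With 1 array per group there was no spread between replicates and no test, so every difference is a description of 2 pools.

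Signals are intensity values that the authors had scaled to a common mean on each array. Values under a floor of 15.2 signal units, the median of all non-control values, were raised to it. Ratios are the TAZ-deficient over the wild type signal on the log2 scale, and a gene was called measured when it was above the floor on either array. The brightest probe set stood for its gene. Wwtr1 read 11.3 in the TAZ-deficient pool and 791.2 in the wild type pool at its brightest probe set, at least 52.1-fold lower, and its other 2 probe sets were also below the floor only in the TAZ-deficient pool. The labels of both arrays thus matched the targeted gene, although the sources used here do not say where these probes lie relative to the disruption. Genes that mark lung epithelium were above the floor in both pools, the transcription factor gene Nkx2-1 reading 60.6 and surfactant protein C (Sftpc) 4121.5 in the TAZ-deficient pool, against 61.1 and 4142.5 in the wild type pool. They are given as a check of the tissue, chosen after their values were seen, and the whole list of epithelium markers is described with the other markers. An error could be taken only from how far probe sets of the same gene disagree. For the 2422 genes whose 2 brightest probe sets were both above 106.3 signal units (the 75th percentile), its SD was 0.13 on the log2 scale for 1 probe set, and 0.19 for a difference between 2. Differences among embryos, between pools or between arrays are not part of this error.

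**Figure D1:**
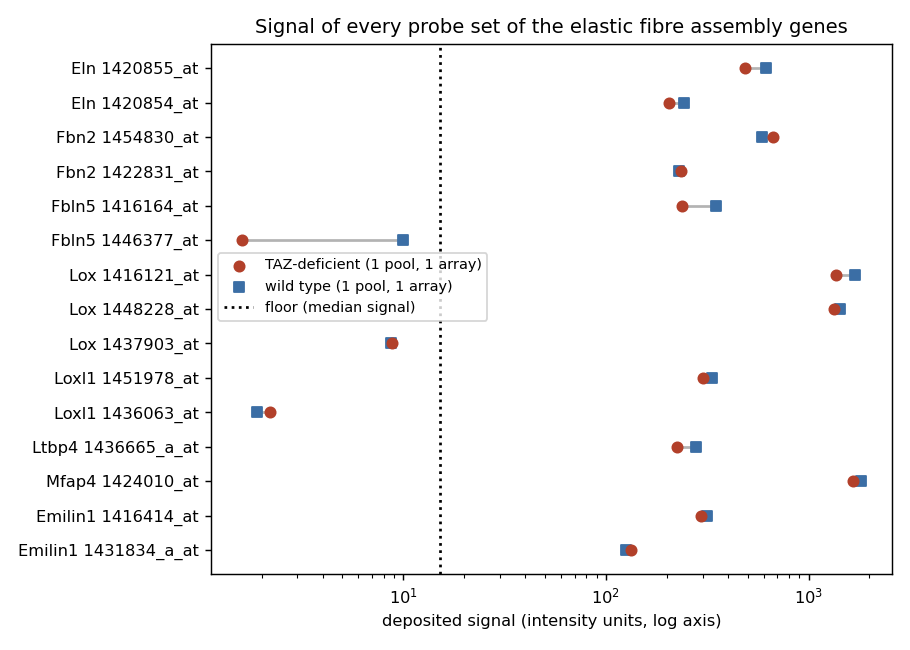
Deposited signal (intensity units, log axis) of all 15 probe sets of the elastic fibre assembly genes in the TAZ-deficient pool (circles) and the wild type pool (squares), with the floor of 15.2 as a dotted line. The Fbln5, Eln and Lox probe sets above the floor lie to the left of wild type in the TAZ-deficient pool, the 2 Fbn2 probe sets lie to the right, and 3 probe sets lie below the floor on both arrays.

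Elastin itself was lower at both of its probe sets. The brighter Eln probe set (1420855_at) read 485.9 in the TAZ-deficient pool and 619.3 in the wild type pool, a log2 ratio of -0.35. The second (1420854_at) read 204.2 in the TAZ-deficient pool and 243.6 in the wild type pool, a log2 ratio of -0.25. The gap of 0.095 between them was smaller than the SD of 0.19 between 2 probe sets of one gene. Among the 2422 genes with 2 bright probe sets, 0.661% had both at or below the weaker of the Eln ratios. Of the 4 members with 2 probe sets above the floor (Eln, Fbn2, Lox and Emilin1), Eln and Lox were lower at both.

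Fbln5 had the lowest ratio of the members. Fibulin-5 is a secreted calcium-binding protein that binds tropoelastin, lysyl oxidase-like 1 and cell surface integrins, and mice without it have loose skin, tortuous arteries and enlarged airspaces. Its probe set 1416164_at read 236.9 in the TAZ-deficient pool and 348.7 in the wild type pool, a log2 ratio of -0.56, or 67.9% of the wild type signal. This was 4.25 times the SD between probe sets. Of the 6922 measured genes with a mean signal above the 75th percentile, 19 had a lower ratio. The second Fbln5 probe set (1446377_at) read 1.6 in the TAZ-deficient pool and 9.9 in the wild type pool, both below the floor, so the ratio of Fbln5 rests on 1 probe set.

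Ltbp4 encodes a matrix protein that binds latent TGF-beta and guides fibulin-5 onto microfibrils, and its loss in mice also enlarges airspaces. Its only probe set (1436665_a_at) read 223.1 in the TAZ-deficient pool and 277.8 in the wild type pool, a log2 ratio of -0.32. The suffix marks a set that matches several transcripts of one gene, and no other probe set of Ltbp4 could be set beside it. Since Fbln5 and Ltbp4 code for binding partners and both were at least 1.2-fold lower, the 250 bases before the outermost listed start of each are shown, with the GC box GGGCGG (or CCGCCC on the other strand) in capitals. The sequences are those of RefSeq on GRCm38.p6, 5′ to 3′ along the minus strand, chr12:101819120-101819369 for the outer of 2 starts of Fbln5 and chr7:27337613-27337862 for the outermost of 3 starts of Ltbp4.
Fbln5 outer start: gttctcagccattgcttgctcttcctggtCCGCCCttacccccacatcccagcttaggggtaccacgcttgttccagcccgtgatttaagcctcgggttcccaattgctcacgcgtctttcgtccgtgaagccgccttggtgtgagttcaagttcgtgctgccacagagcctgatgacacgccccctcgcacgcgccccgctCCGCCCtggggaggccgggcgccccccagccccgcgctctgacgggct
Ltbp4 outer start: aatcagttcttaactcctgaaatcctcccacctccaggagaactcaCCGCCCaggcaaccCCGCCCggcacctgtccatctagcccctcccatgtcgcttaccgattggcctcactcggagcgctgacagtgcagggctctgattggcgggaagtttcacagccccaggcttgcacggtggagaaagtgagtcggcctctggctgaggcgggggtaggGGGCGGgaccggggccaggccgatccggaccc

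The Fbln5 window held 2 GC boxes and the Ltbp4 window 3. The window of the inner Fbln5 start held 0, those of the other 2 Ltbp4 starts held 5 and 7, and that of Emilin1 held 0. These other 2 Ltbp4 windows (chr7:27333649-27333898 and chr7:27333664-27333913) overlap over nearly all of their length, so they are almost the same sequence. A GC box was found in 32.7% of 32851 such windows of all genes in the table. The core motif of TEAD factors, GGAATG or CATTCC, was in neither Fbln5 window and not in the Ltbp4 window shown. It was also absent from those of the other 2 Ltbp4 starts and of Emilin1, and was in 12.6% of all windows. With no TEAD core in the windows shown, no overlap with a GC box was possible there. The CArG box bound by serum response factor, searched by its consensus on both strands, was also absent from these 6 windows and was in 1.47% of all windows. A match or its absence in so short a window says only whether the letters are there. Windows are described for Fbln5, Ltbp4 and Emilin1 only. Those of Eln, Lox, Loxl1, Mfap4 and Fbn2 are not described here, so the motif results do not cover these genes. GC content was 65.2% before the outer and 49.6% before the inner Fbln5 start and 64.4% before the Ltbp4 start shown. It was 79.2% before each of the other Ltbp4 starts and 63.2% before Emilin1, beside a median of 52.4% over all windows.

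Both cross-linking enzymes among the members, Lox and Loxl1, were lower at the probe set standing for the gene. Lysyl oxidase (Lox) is a copper enzyme that oxidises lysines of elastin and collagen so that the chains can be joined, and mice without it die around birth with ruptured arteries and poorly formed lungs. At the probe set standing for the gene (1416121_at), Lox read 1360.3 in the TAZ-deficient pool and 1698.9 in the wild type pool, a log2 ratio of -0.32. Its other bright probe set (1448228_at) read 1337.0 in the TAZ-deficient pool and 1430.2 in the wild type pool, a log2 ratio of -0.10. Both were lower, but their gap of 0.22 exceeded that SD, and 17.2% of genes with 2 bright probe sets had a gap as wide or wider. With the median of the 2 probe sets the log2 ratio was -0.21, short of 1.2-fold. The third Lox probe set (1437903_at) read 8.8 in the TAZ-deficient pool and 8.7 in the wild type pool, below the floor.

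Loxl1, the lysyl oxidase relative that fibulin-5 tethers and that works mainly on elastin, read 300.1 in the TAZ-deficient pool and 334.5 in the wild type pool (1451978_at, log2 ratio -0.16). Its other probe set (1436063_at) was below the floor, at 2.2 in the TAZ-deficient pool and 1.9 in the wild type pool. Of the bright measured genes, 13.3% had a lower ratio than Loxl1. The ratios of Lox and Loxl1 differed by 0.16 on the log2 scale, less than the 0.19 between 2 probe sets of one gene. Loxl3, a lysyl oxidase outside the members, had a log2 ratio of -0.01.

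**Figure D2:**
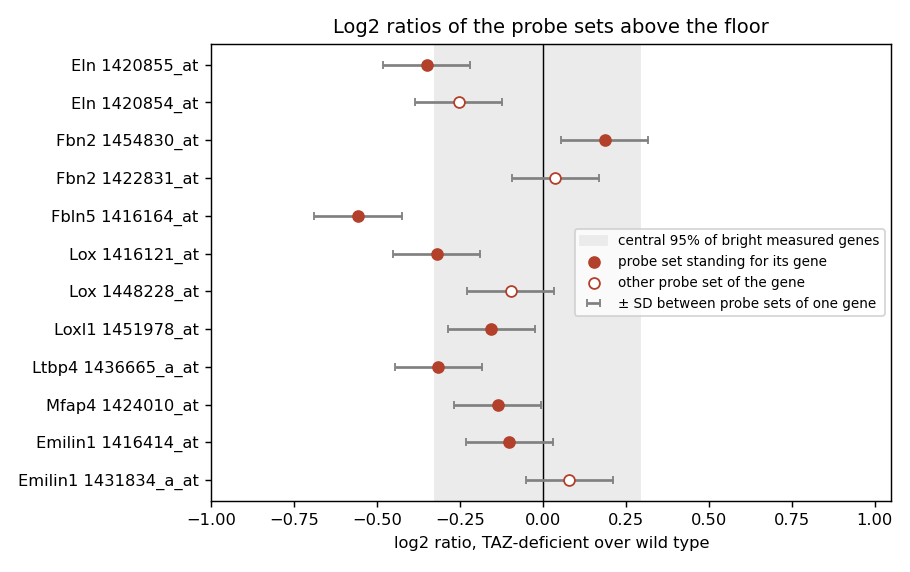
Log2 ratio (TAZ-deficient over wild type) for the 12 probe sets above the floor, filled where the probe set stands for its gene, with the SD of 0.13 between probe sets of one gene as the bar and the central 95% of the 6922 bright measured genes shaded. Fbln5 at -0.56 and the brighter Eln probe set at -0.35 lie outside the shaded range, and the Fbn2 probe sets lie to the right of 0.

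Of the genes of the scaffold and of its interface with elastin, Fbn2, Mfap4 and Emilin1 were each within 1.2-fold of wild type. Ltbp4 and Fbln5, described above, also act at this scaffold and were at least 1.2-fold lower. Fbn2, the fibrillin made mainly before birth, read 670.4 in the TAZ-deficient pool and 589.4 in the wild type pool at 1454830_at, a log2 ratio of 0.19. The second Fbn2 probe set (1422831_at) read 235.0 in the TAZ-deficient pool and 229.1 in the wild type pool, a log2 ratio of 0.04. Both were on the higher side, and 21.1% of genes with 2 bright probe sets had both as high as the weaker of them. Mfap4, a microfibril-associated protein that binds elastin and collagen, read 1661.5 in the TAZ-deficient pool and 1826.0 in the wild type pool (1424010_at, log2 ratio -0.14). Emilin1, a glycoprotein found where elastin meets the microfibril, had probe sets on opposite sides of 0. It read 295.1 in the TAZ-deficient pool and 316.8 in the wild type pool at 1416414_at, a log2 ratio of -0.10. At 1431834_a_at it read 132.2 in the TAZ-deficient pool and 125.2 in the wild type pool, a log2 ratio of 0.08.

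From the lowest ratio to the highest the order was Fbln5, Eln, Lox, Ltbp4, Loxl1, Mfap4, Emilin1 and Fbn2. Only 2 steps in this order, taken at the brightest probe sets, were wider than 0.19, the SD of a difference between 2 probe sets. These were the step of 0.21 from Fbln5 to Eln and the step of 0.29 from Emilin1 to Fbn2. The neighbours Eln, Lox and Ltbp4 differed by at most 0.03, and Loxl1, Mfap4 and Emilin1 by at most 0.03 from one to the next. Fbln5 and Fbn2, at the 2 ends, differed by 0.74 on the log2 scale, 4.01 times that SD. Neither of the 2 wide steps held in every setting. With quantile normalization Fbln5 was at -0.54 and Eln at -0.36, a step below 0.19. With the median over probe sets Emilin1 was at -0.01 and Fbn2 at 0.11, also a step below 0.19. At their second probe sets Emilin1 (0.08) was above Fbn2 (0.04).

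Set against all genes, 4 of 8 members were at least 1.2-fold lower, beside 10.6% of the 12032 measured genes. All 8 members were bright, and among measured genes with a mean signal above the 75th percentile the share was 4.68%. No member was at least 1.2-fold higher, beside 8.01% of measured genes and 3.42% of the bright ones. None was at least 1.5-fold lower or higher, beside 1.46% and 1.26%. A log2 ratio below 0 was found for 7 of 8 members and for 52.9% of measured genes (51.0% of the bright ones). The median log2 ratio was -0.24 over the members and -0.01 over all measured genes. The members are genes of one assembly and not independent replicates, so these shares describe the list and test nothing.

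**Figure D3:**
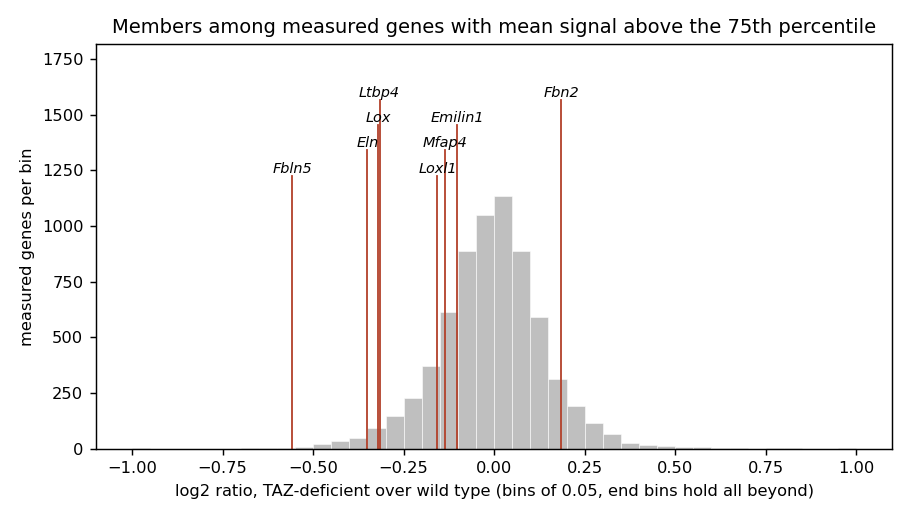
Number of measured genes with a mean signal above the 75th percentile in each bin of the log2 ratio (TAZ-deficient over wild type), with a line at each of the 8 members. Fbln5, at -0.56, had 19 of the 6922 genes below it and Eln, at -0.35, had 133, while Fbn2 is the only member to the right of 0.

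Other genes of the same pathway were taken in 5 lists, which together held 66 genes, 54 of them measured. Of these 7 (13.0%) were at least 1.2-fold lower and 5 (9.26%) at least 1.2-fold higher, shares near the 10.6% and 8.01% of all measured genes. At least 1.5-fold lower was 1 and at least 1.5-fold higher were 0, and the median log2 ratio was -0.07. In the list of other microfibril and fibulin genes 4 of 17 were at least 1.2-fold lower and 3 at least 1.2-fold higher, with a median log2 ratio of -0.07. All of these lower and higher genes read below 106.3 signal units in both pools. With the floor at 106.3, 0 of the list were lower and 0 higher at this fold. A pseudocount of 16 in place of the floor gave 1 lower and 3 higher. The microfibril protein gene Mfap5 (MAGP2) was the only pathway gene at 1.5-fold, at 21.0 in the TAZ-deficient pool and 36.2 in the wild type pool (1.72-fold lower), both close to the floor. Its second probe set had a log2 ratio of -0.28. The other lysyl oxidases and the genes of their processing were within 1.2-fold at the brightest probe set in all 7 measured cases, with a median log2 ratio of -0.01. The second probe set of Fn1, the fibronectin gene, was at -0.47, and with the median over probe sets 1 of the list was at least 1.2-fold lower. Among them Bmp1, the protease that activates lysyl oxidase, had the lowest log2 ratio (-0.12; 261.8 in the TAZ-deficient pool and 283.8 in the wild type pool), with its second probe set at 0.04. Atp7a, the pump that loads lysyl oxidase with copper, had the highest (0.14; 374.6 in the TAZ-deficient pool and 338.9 in the wild type pool).

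Of the 11 measured receptors, chaperones and matrix partners of elastin, 1 was at least 1.2-fold lower and 1 higher. Over all measured genes the shares were 10.6% lower and 8.01% higher. Hspg2, which encodes the basement membrane proteoglycan perlecan, read 84.2 in the TAZ-deficient pool and 121.8 in the wild type pool (1.45-fold lower), while its second probe set had a log2 ratio of -0.05. Neu1, a sialidase of the elastin receptor complex, was highest, at 40.6 in the TAZ-deficient pool and 32.3 in the wild type pool (1.26-fold). At the brightest probe sets these 2 genes mark the ends of a list with a median log2 ratio of -0.08. Among the other probe sets of the list, the second of Ctsa was at 0.48 and the lowest of Itgav at -0.47. With the floor at 106.3, 0 of the list were lower and 0 higher at 1.2-fold, and with the floor at 4.3, 2 were lower and 2 higher. The pseudocount of 16 gave 1 lower and 0 higher.

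Among the 8 measured elastases and inhibitors, 1 was at least 1.2-fold lower and 0 were higher, with a median log2 ratio of -0.17. The shares over all measured genes were 10.6% lower and 8.01% higher. Cathepsin S (Ctss), an elastin-degrading protease of macrophages, was lowest, at 202.2 in the TAZ-deficient pool and 269.5 in the wild type pool (1.33-fold lower). Cathepsin L (Ctsl) was highest, at 887.3 in the TAZ-deficient pool and 859.0 in the wild type pool (1.03-fold). The macrophage and neutrophil elastase genes Mmp12 and Elane were below the floor in both pools. In the list of growth factors linked to elastin expression, 1 of 11 was at least 1.2-fold lower and 1 higher, beside the same shares. The median log2 ratio of this list was -0.06. Igf1, which raises elastin synthesis in smooth muscle cells, was lowest, at 513.3 in the TAZ-deficient pool and 681.5 in the wild type pool (1.33-fold lower), and its other 3 probe sets had log2 ratios between -0.50 and -0.33. Smad3, a mediator of TGF-beta signals, was highest, at 300.2 in the TAZ-deficient pool and 245.7 in the wild type pool (1.22-fold), with its other 2 probe sets between -0.05 and 0.15.

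**Figure D4:**
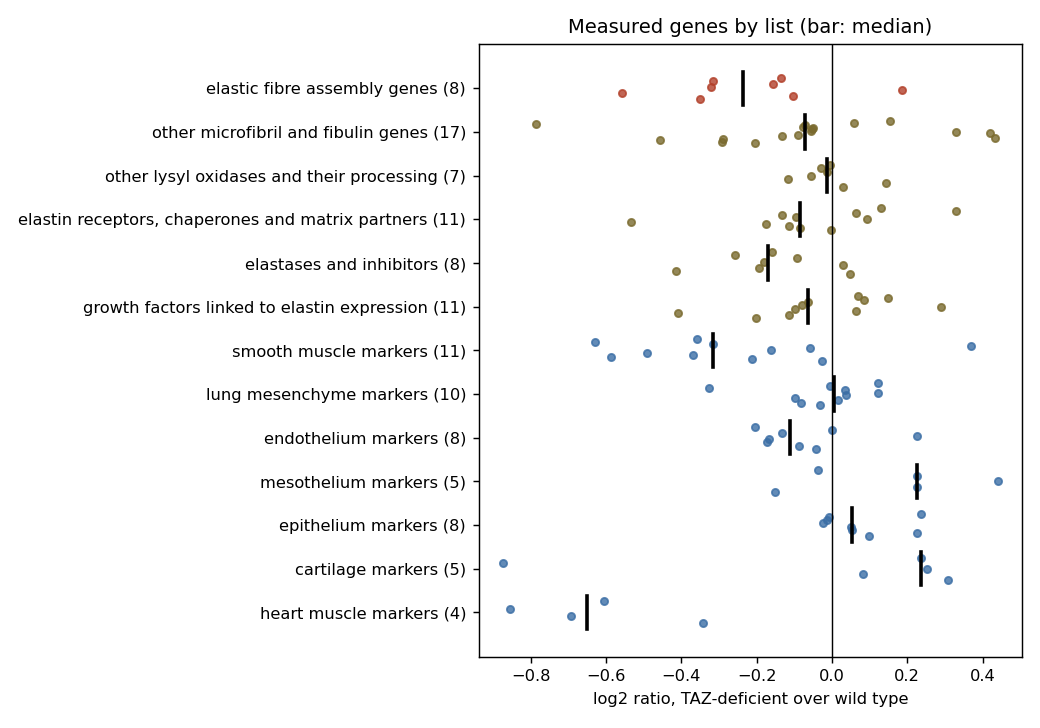
Log2 ratio (TAZ-deficient over wild type) for each measured gene of the elastic fibre assembly genes, the 5 pathway lists and 7 lists of cell type markers, with the number measured in brackets and the median as a bar. The medians of the elastic fibre genes (-0.24), the smooth muscle markers (-0.32) and the heart muscle markers (-0.65) are the lowest, and that of the lung mesenchyme markers is 0.01.

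Markers of cells that make elastic fibres, or that border on the lung, were measured beside the members. Of 11 measured smooth muscle markers 10 were lower, beside 52.9% of all measured genes, and 6 were at least 1.2-fold lower, beside 10.6%. Their median log2 ratio was -0.32. Their summed signal was 5644.7 in the TAZ-deficient pool and 6138.0 in the wild type pool. Synpo2, an actin-binding protein of the Z-disc, was lowest, at 62.9 in the TAZ-deficient pool and 97.2 in the wild type pool (1.55-fold lower), and the coactivator Myocd was highest, at 59.0 in the TAZ-deficient pool and 45.7 in the wild type pool, with its second probe set on the opposite side of 0 (-0.34). Smooth muscle actin (Acta2) read 2701.5 in the TAZ-deficient pool and 2749.2 in the wild type pool. In whole lung, fewer cells of a type and less RNA per cell cannot be told apart. The part of smooth muscle in the lower Fbln5, Eln and Lox signals was not tested.

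All 4 measured heart muscle markers were at least 1.2-fold lower, beside the same 10.6% of measured genes, with a median log2 ratio of -0.65 and a summed signal of 516.8 in the TAZ-deficient pool and 691.0 in the wild type pool. The atrial myosin light chain Myl7 was lowest (46.2 in the TAZ-deficient pool and 83.6 in the wild type pool), and Actc1, the cardiac actin, was nearest to wild type (435.1 in the TAZ-deficient pool and 551.9 in the wild type pool). Myh7 (15.4 in the TAZ-deficient pool and 24.9 in the wild type pool) and Tnnt2 (20.1 in the TAZ-deficient pool and 30.6 in the wild type pool) were dim but above the floor, and the other 3 of the 7 listed genes, Myh6, Tnni3 and Nppa, were below it in both pools. Whether attached heart or vessel tissue contributed to the elastic fibre signals was not tested.

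The 10 measured lung mesenchyme markers had a median log2 ratio of 0.01. At their brightest probe sets 1 was at least 1.2-fold lower and 0 at least 1.2-fold higher. Over all measured genes the shares were 10.6% and 8.01%. The summed signal of these markers was 6837.5 in the TAZ-deficient pool and 6818.1 in the wild type pool. They ran from Tbx5, a T-box factor (93.1 in the TAZ-deficient pool and 116.8 in the wild type pool), to the signalling ligand Wnt2 (634.9 in the TAZ-deficient pool and 583.3 in the wild type pool). Their other probe sets ran wider, from the lowest of Pdgfra at a log2 ratio of -0.97 and the second of Tbx5 at -0.74 to the second of Tcf21 at 0.23. The remaining Pdgfra probe set was at -0.10. The 8 endothelium markers had a median of -0.11, from Tie1 at -0.20 to Kdr at 0.23. The 8 epithelium markers had a median of 0.05, from Krt8 at -0.03 to Sox9 at 0.24, and the second Epcam probe set was at 0.57. The 5 measured mesothelium markers had a median of 0.22, from Krt19 at -0.15 to Upk1b at 0.44. The other 3 Upk1b probe sets above the floor lay between 0.02 and 0.23. The 5 measured cartilage markers had a median of 0.24, from Matn3 at -0.87 to Col2a1 at 0.31. Matn3 read 18.3 in the TAZ-deficient pool and 33.5 in the wild type pool, close to the floor, and its second probe set was at -0.07. Sox9 is in both the epithelium and the cartilage list, and its ratio is the cartilage median. None of the listed markers with a probe set was at 0 on either array.

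No member gene changed sign under the 8 alternatives, but several of these could not move a member. Every member read above the highest floor of 106.3 on both arrays, so neither other floor could change its ratio, and Fbln5, Loxl1, Mfap4 and Ltbp4 had 1 probe set above the floor, so the probe set rules could not change theirs (Ltbp4 had no value without suffixed probe sets). The log2 ratio ran from -0.56 to -0.53 for Fbln5, from -0.36 to -0.30 for Eln, and from -0.32 to -0.29 for Ltbp4. For Lox it ran from -0.36 to -0.21, the weakest value coming from the median of its probe sets. Fbn2 stayed above 0, between 0.11 and 0.20, and Emilin1 below 0, between -0.10 and -0.01.

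**Figure D5:**
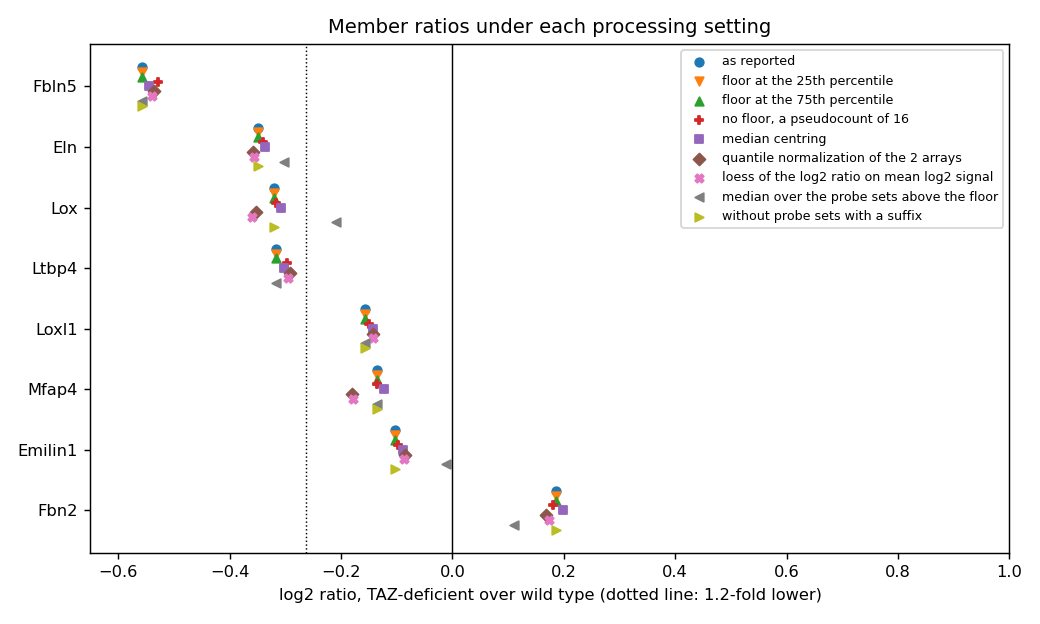
Log2 ratio (TAZ-deficient over wild type) for each measured member under the reported setting and 8 alternatives, each with its own symbol and a dotted line at 1.2-fold lower. Fbln5 and Eln stay left of the dotted line in every setting and Fbn2 stays right of 0, while Lox crosses the dotted line with the median over probe sets (-0.21) and Emilin1 approaches 0 there (-0.01).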

How the data were processed

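Whole-lung RNA at E15.5, pooled from 4 samples per group, was hybridised to 1 array per group (2 arrays). The authors deposited linear intensity values; the submitters' processing notes name GCOS and MAS5. Each array's mean without the lowest and highest 2% was 100.0 signal units. The sources used here give neither versions nor a genome build. Of 45101 probe sets, 64 were controls, 34945 had 1 gene, 932 several and 9160 were not listed; symbols were updated through Entrez identifiers to GRCm38.p6. The 34945 stood for 18193 genes. The number of arrays limits the precision.

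Ratios, floors and lists were computed with Python 3.11.15, pandas 2.3.3 and statsmodels 0.14.6. Named genes were all members, Wwtr1, pathway genes at least 1.5-fold different (otherwise each list's highest and lowest) and each marker list's highest and lowest. Acta2, Sftpc, Nkx2-1, Myh7, Tnnt2, Fn1 and Loxl3 were chosen after their values were seen. So were the other probe sets of Pdgfra, Tcf21, Epcam, Ctsa and Itgav and the genes named as below the floor. The members and lists were chosen with earlier results of these data known. Alternatives were 2 other floors, a pseudocount of 16, median centring, quantile normalization, loess, the median over probe sets and leaving out probe sets with a suffix.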

Additional observations from a re-analysis of the deposited data

How the results depend on the processing

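The number of members at least 1.2-fold lower was 4 of 8 as reported and under 6 of the alternatives. It was 3 of 8 with the median over probe sets, where Lox fell short, and 3 of 7 without probe sets with a suffix, where Ltbp4 had none left. The median log2 ratio of the members lay between -0.24 and -0.16. Beside it, the share of all measured genes at least 1.2-fold lower was 18.3% under the lower floor (25th percentile) and 4.19% under the higher one (75th percentile). Counts over the pathway lists moved. The floor of 106.3 raises lower values to it and leaves out genes below it on both arrays. Mfap5, at 21.0 in the TAZ-deficient pool and 36.2 in the wild type pool, was among those left out. Apart from the genes named here, the cause of these moves was not tested. At least 1.5-fold higher were 1 gene with the floor at the 25th percentile (4.3 signal units) and 0 as reported. That gene was Vtn, at 8.9 in the TAZ-deficient pool and 5.3 in the wild type pool, both under the reported floor. With the floor at the 75th percentile, 1 was at least 1.2-fold higher, 2 were at least 1.2-fold lower and 0 at least 1.5-fold lower. The pseudocount gave 4 and 0 lower at these folds, and the median over probe sets gave 0 at least 1.5-fold lower. Mfap5, the only pathway gene at least 1.5-fold lower as reported, fell short in both. No paired analysis was possible because each group has 1 array, and no replicate could be left out.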
